A study of Rattus norvegicus with 27 samples.

Results

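Chemokine, interleukin and Toll receptor genes were examined in the hearts of rats that had breathed particles. A probe belonged to the set where its annotated symbol began with Ccl, Ccr, Cxcl, Cxcr, Tlr or Il followed by a digit, or was Tnf, Myd88 or Icam1. This rule took 116 probes for 113 genes out of the 22226 probes of the table, of which 13192 carried a gene symbol. The set held 16 CC ligands, 11 CXC ligands, 14 chemokine receptors, 29 interleukin probes, 31 interleukin receptor probes, 9 Toll receptor probes, 3 soluble interleukin inhibitors and the 3 genes named singly. Il33, Tlr5 and Il17rb had a pair of probes each, which share a gene and are not separate evidence.

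Total RNA came from the hearts of male Fisher 344 rats that were 4 weeks old when exposure began. All rats inhaled air for 3 months, either filtered (7 arrays, the controls) or carrying coarse (6 arrays), fine (6 arrays) or ultrafine (8 arrays) particles. Each array was taken as 1 rat, although the labels do not say so, and p-values measure only the spread between these samples. Levels are given on the log2-like scale of the deposited table, and a fold is a fold on that scale. Precision is limited by how many arrays a group has.

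Chemokines are small secreted proteins that draw leukocytes along a gradient by way of receptors that span the cell membrane, and the CC and CXC families are named for the spacing of their leading cysteines. Interleukins carry signals between leukocytes and tissue cells, and soluble inhibitors such as Il1rn and Il18bp hold some of them back. Toll receptors recognise microbial products and molecules from damaged cells, and most of them signal through the adaptor Myd88 to the NF-kappa B factors, which switch on many chemokine genes.

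A set of 7 arrays stood apart, and they were left out of a second fit of each comparison. On filtered air 1, coarse 1, coarse 2, fine 2, ultrafine 2 and ultrafine 7 the T cell receptor chain Cd3d lay between 9.57 and 12.16, against 5.87 to 7.89 on the other 21 arrays. Ultrafine 8 was the seventh, with a median correlation with the other arrays of 0.913, where the 20 arrays kept had 0.972 or more. On the 6 arrays high in Cd3d, genes of developing T cells were high as well: Rag1, part of the enzyme that joins receptor gene segments, lay between 8.31 and 11.28 (5.56 to 7.13 on the others), Dntt, which adds bases at those joints, between 6.53 and 9.21 (5.56 to 6.20) and the coreceptor chain Cd8a between 9.01 and 11.77 (6.03 to 7.64). Whether those 6 samples or the other 21 held tissue other than heart was not tested. Levels of members therefore cannot be read as levels in heart alone. Among the 20 arrays kept, the mean of 6 skeletal muscle marker probes reached 8.90 on coarse 6, where the median of the coarse arrays kept was 6.77. The adipocyte marker Ucp1 ran from 5.54 on coarse 3 to 11.30 on filtered air 5. The heart label fitted the 6 cardiomyocyte marker probes, whose mean level ran from 11.35 to 12.52 over the arrays. This left 20 arrays, with 6, 4, 5 and 5 in the filtered air, coarse, fine and ultrafine groups.

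The members lay near background about as often as all probes did, and more often than probes with a gene symbol, which every member has. A mean below 5.8 over all 27 arrays, taken as near background, was found for 56 of the 116 probes (48.3%), against 48.9% of all probes and 40.4% of those with a symbol. Of these 56 probes, 51 did not reach 6 on any array. Near background means only that a change there could hardly be seen, not that the gene was silent.

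Of the 29 interleukin probes, 21 were near background, and Tnf at 5.72, Il6 at 5.68, Il1a at 5.66 and Il10 at 5.56 were among the genes below the limit. These encode tumour necrosis factor, the fever and acute phase cytokine interleukin 6, an interleukin 1 and the inhibitory interleukin 10. Of the 31 interleukin receptor probes, 16 were near background, among them Il1r1 at 5.64, the receptor through which interleukin 1 signals. Toll receptors had 5 of 9 below the limit, and the lipopolysaccharide receptor Tlr4 lay just above it at 5.81. Another 3 of 16 CC ligands, 3 of 11 CXC ligands and 5 of 14 chemokine receptors were near background. The members nearest above the limit were Il23a at 5.804 and Il20rb at 5.802, and the nearest below were Ccl12 at 5.791 and Cxcl2 at 5.784. Icam1 (6.54), an adhesion molecule that holds leukocytes to endothelium, and Myd88 (6.58) were above it.

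**Figure D1:**
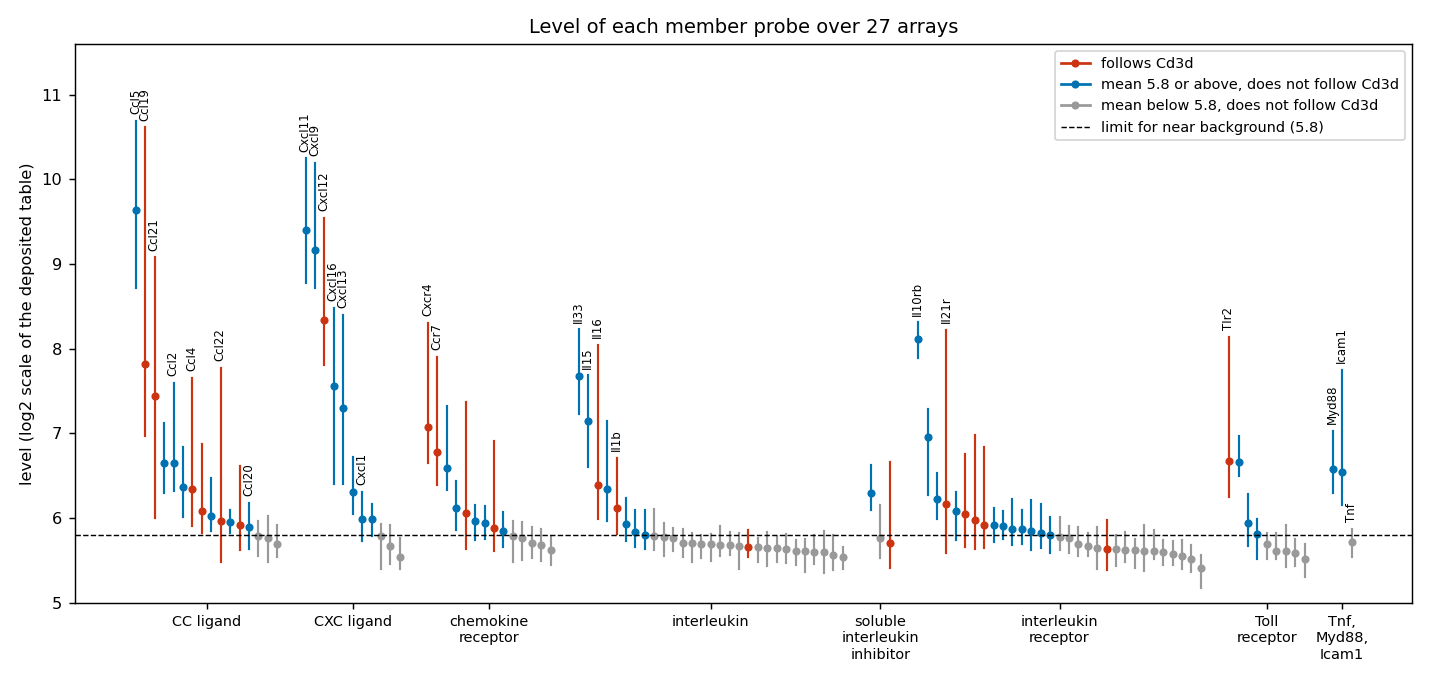
Level of each of the 116 probes on the log2 scale, grouped by role, with the mean over 27 arrays as a point and the lowest to highest array as a line. Red probes follow Cd3d, and the dashed line marks 5.8, below which 56 probes lie.

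Only 12 probes had a mean above 7, and most of them were ligands. The 10 highest means were those of Ccl5 (9.64), Cxcl11 (9.41), Cxcl9 (9.17), Cxcl12 (8.34), the shared receptor subunit Il10rb (8.11), Ccl19 (7.82), a probe of the alarm cytokine Il33 (7.67), Cxcl16 (7.55), Ccl21 (7.44) and Cxcl13 (7.30). Brightness also depends on the probe, so these means do not rank the genes by amount of RNA. The other Il33 probe was near background at 5.64.

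These bright genes fall into several known roles. Cxcl9 and Cxcl11 are ligands of Cxcr3 that interferon gamma induces, and Ccl5 draws T cells and monocytes. Cxcl12 retains Cxcr4-bearing cells in tissue, while Ccl19 and Ccl21 guide Ccr7-bearing T cells and dendritic cells to lymphoid tissue. In the RefSeq gene order, Cxcl9, Cxcl10 and Cxcl11 are direct protein-coding neighbours, as are Ccl3 and Ccl4, Ccl3 and Ccl6, and Ccl2 and Ccl7.

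Ccl5 varied widely within the groups. Its lowest, median and highest levels were 9.15, 9.52 and 9.70 in filtered air, 9.30, 9.78 and 9.98 with coarse, 9.50, 9.86 and 10.16 with fine, and 8.72, 9.60 and 10.70 with ultrafine particles. The highest value stood on ultrafine 5 and the lowest on ultrafine 8, so the ultrafine group spanned all the others. Against filtered air its log2 difference was 0.30 (SE 0.20) with coarse, 0.40 (SE 0.20) with fine and 0.14 (SE 0.18) with ultrafine particles, with adjusted p of 0.985, 0.858 and 0.896. Without ultrafine 5 alone the ultrafine difference was -0.014. In the 20 arrays, which include ultrafine 5, the differences were 0.46, 0.38 and 0.46, with adjusted p of 0.353, 0.363 and 0.308. These 3 comparisons share their filtered air arrays, as do all comparisons with filtered air given here.

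A share of the members moved with Cd3d from array to array. A probe was taken to follow Cd3d where at least 5 of its 6 highest arrays were among the 6 arrays highest in Cd3d, and 21 of the 116 members did so (18.1%), against 5.93% of all probes. Among members kept for testing it was 18 of 61 (29.5%), against 10.2% of kept probes. Probes were kept by their mean over all arrays, the 6 arrays high in Cd3d included. High values there can lift a follower over the limit, so the kept shares partly reflect those arrays. Ccr9, a follower that was kept, had a mean of 5.88 but a median of 5.72. Rag1 and Cd3e have the same 6 highest arrays as Cd3d, so taking either in its place had to give the same 21 and is no separate check. In whole hearts, more cells of a type and more RNA per cell cannot be told apart.

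The 21 followers came from several roles. They comprised the CC ligands Ccl19, Ccl21, Ccl17, Ccl22, Ccl3 and Ccl4, the CXC ligand Cxcl12, and the receptors Cxcr4, Ccr7, Ccr6 and Ccr9. The rest were Tlr2, Il16, Il1b, Il21r, Il17ra, Il9r, Il1r2 and, near background, Il22ra2, Il12a and Il2ra. For Ccl19, Tlr2, Il16, Il21r, Il17ra and Ccr9 all 6 highest arrays were the same as for Cd3d, which makes 6 of 116 (5.17%) against 1.84% of all probes. Other members known from lymphocyte traffic, Cxcr3, Cxcr5, Ccr4, Cxcl13 and Ccl25, did not follow Cd3d by this rule. Even so, Ccl25 (6.48) and Cxcl13 (8.40) were highest on ultrafine 7 and Ccr4 (6.07) on coarse 1, both high in Cd3d. Cxcr3 and Cxcr5 were highest on ultrafine 5 and filtered air 7, which are not. Ccr9, a homing receptor of thymocytes, also stands in the T cell marker list.

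Ccl19 had the widest range of any member. It lay between 8.22 and 10.61 on the 6 arrays high in Cd3d and between 6.97 and 7.69 on the other 21. It was highest on coarse 1 (10.61) and ultrafine 7 (10.60), then ultrafine 2 (9.94), filtered air 1 (9.38), coarse 2 (9.24) and fine 2 (8.22). The arrays high in Ccl19 therefore came from every group, filtered air included.

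Il21r, the receptor of a T cell cytokine, lay between 6.28 and 8.23 on those 6 arrays and between 5.58 and 6.13 on the other 21. Il16, which attracts cells bearing Cd4, ran from 6.70 to 8.04 against 5.99 to 6.44. Tlr2, which recognises bacterial lipoproteins, ran from 6.86 to 8.14 against 6.24 to 6.85. That the 6 arrays lay above the other 21 in these 4 genes follows from the choice of probes sharing all 6 highest arrays, so the values show only by how much, and the gap was small for Tlr2.

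Ccl22, a ligand of Ccr4, reached 7.77 on the 6 arrays and lay between 5.48 and 6.07 elsewhere, but its lowest value on the 6 arrays was 5.86. Ccl21 lay between 7.07 and 9.08 on them and between 5.99 and 7.54 on the others, and Cxcl12 between 8.08 and 9.54 against 7.81 to 8.57. In Ccl21 and Cxcl12 the lowest of the 6 arrays was fine 2, which was also the lowest of the 6 in Cd3d. Ccl17, the other ligand of Ccr4, lay between 6.06 and 6.87 against 5.82 to 6.12. Il1b, the fever cytokine that inflammasomes release, lay between 6.08 and 6.71 against 5.81 to 6.33, a narrower range than the chemokines showed.

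**Figure D2:**
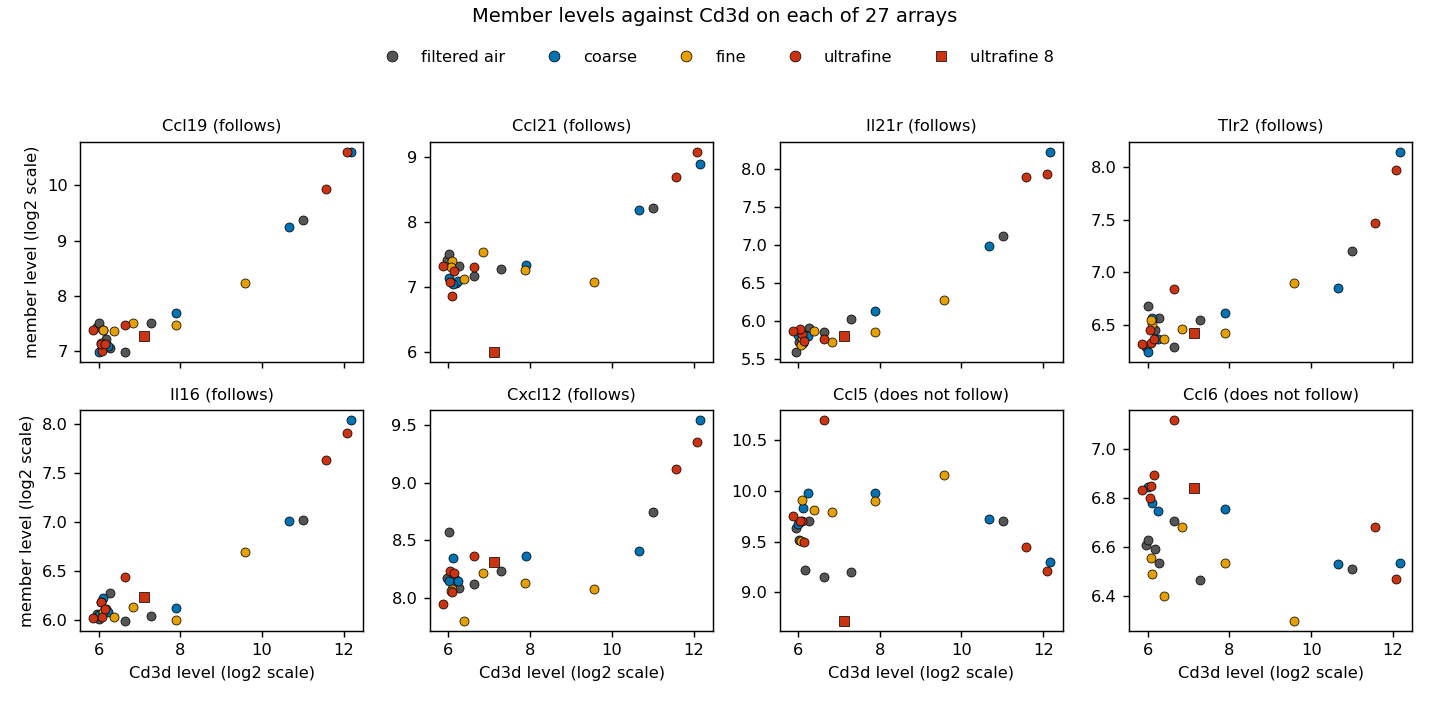
Level of 8 members against Cd3d on each of the 27 arrays, both on the log2 scale, coloured by exposure with ultrafine 8 as a square. The 6 arrays with Cd3d of 9.57 or more are high in Ccl19, Il21r, Tlr2 and Il16, whereas Ccl5 and Ccl6 are not highest there.

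Among the members at or above 5.8, the highest value fell on coarse 1 for 17 and on ultrafine 7 for 11, both high in Cd3d. These members include 18 followers, chosen for being high on such arrays, and the limit uses a mean that includes those arrays. The counts are therefore partly fixed by the choice, and no share over all probes is given beside them. It fell on ultrafine 5, which is not one of the 7 arrays, for 9. Ultrafine 5 was also the highest array in the mean of the macrophage markers, at 7.65. Ccl2 (7.60), Ccl5 (10.70) and Ccl6 (7.12) were at their highest there.

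No member passed the test in any of the comparisons over the 27 arrays. Of the 61 members kept by the filter on low values, limma called 0 at an adjusted p under 0.05 with coarse, fine or ultrafine particles against filtered air, where it called 0.00858%, 0.0% and 0.0686% of all kept probes. Between sizes it also called 0 members, where it called 0.0257% of kept probes for coarse against fine, 0.0% for coarse against ultrafine and 0.197% for fine against ultrafine. A test of any difference among the 4 groups called 0 members and 0.0944% of kept probes.

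Members with an unadjusted p under 0.05 were a larger share than among kept probes in some tests and a smaller share in others. There were 2 of 61 with coarse, 2 with fine and 4 with ultrafine particles against filtered air, beside 4.07%, 5.98% and 5.28% of kept probes. For coarse against fine there were 8 of 61 beside 6.58%, for coarse against ultrafine 1 beside 2.56%, and for fine against ultrafine 5 beside 12.1%. The test of any difference gave 6 of 61 beside 6.92%. Both coarse and ultrafine hearts had more members above filtered air than below it, 42 and 46 of 61, beside 48.4% and 51.7% of kept probes, and fine hearts had 22 beside 50.8%.

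Of the 6 arrays high in Cd3d, 2 were coarse, 2 ultrafine, 1 filtered air and 1 fine, so the choice of followers favours higher coarse and ultrafine means, and the counts that follow are a description. With coarse and with ultrafine particles 18 of 18 followers lay above filtered air, with median differences of 0.20 and 0.22, and of the 43 other members 24 and 28 did, with medians of 0.015 and 0.041. Without the arrays standing apart, 11 and 10 of the 18 followers lay above filtered air, beside 51.4% and 49.2% of kept probes, with medians of 0.017 and 0.016. Over all kept probes the median difference was -0.0036 with coarse and 0.0039 with ultrafine particles in the 27 arrays.

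Of the 14 CC ligands kept, 12 lay above filtered air with coarse (median 0.15) and 14 with ultrafine particles (median 0.15), followers of Cd3d among them. Of these 14, 11 in the 20 arrays lay above it in both comparisons, with medians of 0.056 and 0.069. Of the 8 CXC ligands, 3 lay above filtered air with coarse and 4 with ultrafine particles in 27 arrays, and 2 and 1 did in the 20 arrays. The 4 Toll receptors kept were all above filtered air with coarse and with ultrafine particles in 27 arrays and 3 and 2 were in the 20 arrays. None of these counts was tested.

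**Figure D3:**
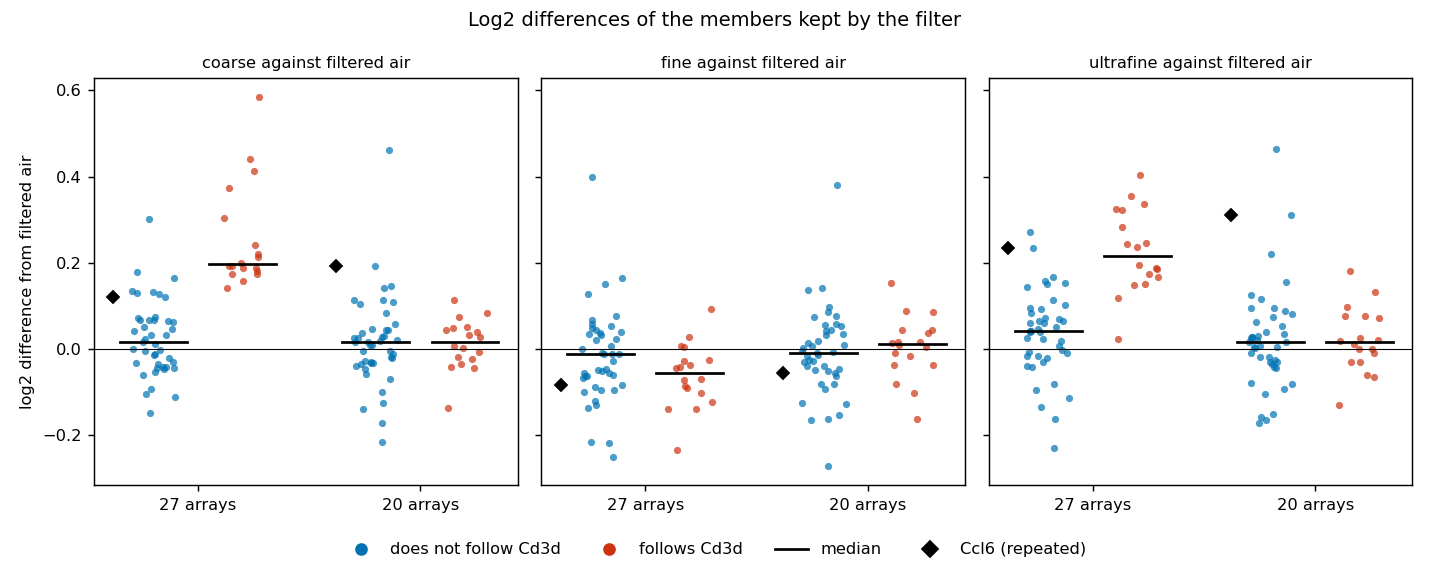
Log2 difference from filtered air of each of the 61 members kept, for each particle size in all 27 arrays and in the 20 arrays left without those standing apart, with followers of Cd3d in red. The 18 followers lie above 0 with coarse and with ultrafine particles in 27 arrays and on both sides of 0 in 20, while Ccl6 (black) is higher with ultrafine particles in the 20 arrays.

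Ccl6, a rodent CC chemokine that attracts monocytes and macrophages, was the member that passed the test once the 7 arrays were left out, which include the 2 lowest of the ultrafine group. In filtered air its lowest, median and highest levels were 6.47, 6.59 and 6.71, with coarse particles 6.53, 6.75 and 6.84, with fine particles 6.30, 6.51 and 6.68, and with ultrafine particles 6.47, 6.84 and 7.12. Of the 8 ultrafine arrays, 6 lay above every filtered air array, and the exceptions, ultrafine 2 at 6.68 and ultrafine 7 at 6.47, were both high in Cd3d. Over the 27 arrays ultrafine hearts were higher than filtered air by 0.23 (SE 0.073, 1.18-fold), with an unadjusted p of 0.0036 and an adjusted p of 0.637, which is not a call.

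In the 20 arrays the difference in Ccl6 was 0.31 (SE 0.061, 1.24-fold, adjusted p = 0.014), and 5 of 5 ultrafine arrays lay above all 6 of filtered air. There limma called 0.721% of kept probes, 1 member of 61 among them. A test of any difference among the groups also called Ccl6 (adjusted p = 0.00789), beside 0.832% of kept probes. Leaving out each of the 20 arrays in turn kept the call in 20 of 20 fits, with differences from 0.26 to 0.33 and adjusted p from 0.0105 to 0.0419. Over the alternatives to the 27-array fit the difference ran from 0.19 to 0.31 and the adjusted p from 0.00449 to 0.949.

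Ccl6 was also lower with fine than with ultrafine particles. The difference was -0.32 (SE 0.076) in 27 arrays, with an adjusted p of 0.0721, and -0.37 (SE 0.063) in the 20 arrays, with an adjusted p of 0.00528, where 1.11% of kept probes were called. Its adjusted p ran from 0.000963 to 0.321 over the alternatives. There 5 of 5 fine arrays lay below all ultrafine arrays, and the call held in 20 of 20 fits that left out an array.

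Coarse particles gave a Ccl6 difference from filtered air of 0.12 (SE 0.078, adjusted p = 0.985) in 27 arrays and 0.19 (SE 0.064, adjusted p = 0.302) in the 20 arrays. In the latter 4 of 4 coarse arrays lay above all of filtered air, but the difference passed in 0 of 20 fits with an array left out. The group means of Ccl6 had the same order in both sets of arrays, fine, filtered air, coarse and ultrafine from lowest to highest, and filtered air was not shown to differ from fine or coarse, nor coarse from ultrafine.

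No other member was called in the 20 arrays. For coarse and fine against filtered air, coarse against fine and coarse against ultrafine, limma called 0 members there, beside 0.377%, 0.0%, 0.275% and 0.0% of kept probes. With weights that give noisier arrays less say, all 27 arrays gave 1 call for ultrafine against filtered air (Ccl6, beside 0.738% of kept probes), 2 for coarse against fine (Ccl6 and Myd88, beside 0.472%), 1 for fine against ultrafine (Ccl6, beside 6.99%) and 2 for any difference (beside 3.38%). The weighted fit called 0 members for coarse and fine against filtered air and coarse against ultrafine, beside 1.08%, 0.163% and 0.0%.

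Macrophages make Ccl6 in mice, and their markers are given beside it. The mean over 7 macrophage marker probes, 0 of them near background, ran from 7.04 to 7.24 in the filtered air arrays of the 20, from 7.27 to 7.44 in coarse, from 7.16 to 7.25 in fine and from 7.14 to 7.65 in ultrafine arrays. The medians were 7.21, 7.37, 7.22 and 7.27 in that order, highest with coarse particles, whereas Ccl6 had its highest mean with ultrafine particles. The coarse range lay above the filtered air range, and the ultrafine range overlapped it. Ultrafine 5, the highest array in these markers at 7.65, was also the highest in Ccl6, at 7.12. In 27 arrays 7 of 7 probes lay above filtered air with ultrafine particles and 6 of 7 with coarse, and 0 were called. The scavenger receptor Cd163 had a difference of 0.26 (SE 0.073, adjusted p = 0.632) with coarse and 0.23 (SE 0.068, adjusted p = 0.524) with ultrafine particles. The part of macrophage RNA in the Ccl6 difference was not tested.

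The windows before the start sites of Ccl6, Cxcl1 and Il1b, the called member and the neutrophil and fever genes described with it, are shown so that their promoter letters can be set beside their levels. Each is the 250 bases upstream of the start in RefSeq's GRCr8 assembly, 5′ to 3′ on the gene's strand, at chr10:68883367-68883616 (minus) for Ccl6, chr14:17479322-17479571 (minus) for Cxcl1 and chr3:137036582-137036831 (minus) for Il1b. Capitals mark letters that match, on either strand, GGGANTT, the leading part of a common form of the NF-kappa B site, or TATAAA, the core promoter box that positions the start of transcription.
Ccl6: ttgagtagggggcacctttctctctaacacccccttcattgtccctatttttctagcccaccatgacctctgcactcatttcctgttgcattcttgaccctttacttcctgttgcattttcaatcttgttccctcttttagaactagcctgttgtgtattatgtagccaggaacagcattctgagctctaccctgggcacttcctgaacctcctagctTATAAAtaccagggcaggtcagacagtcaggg
Cxcl1: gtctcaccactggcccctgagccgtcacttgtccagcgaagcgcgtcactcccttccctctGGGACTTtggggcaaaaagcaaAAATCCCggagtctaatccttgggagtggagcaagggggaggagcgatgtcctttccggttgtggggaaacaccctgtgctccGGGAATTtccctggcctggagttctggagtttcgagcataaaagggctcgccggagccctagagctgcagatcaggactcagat
Il1b: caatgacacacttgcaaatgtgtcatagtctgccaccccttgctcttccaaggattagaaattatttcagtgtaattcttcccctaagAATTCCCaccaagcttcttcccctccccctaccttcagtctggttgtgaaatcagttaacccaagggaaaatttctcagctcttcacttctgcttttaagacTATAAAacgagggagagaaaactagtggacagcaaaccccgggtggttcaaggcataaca
Cxcl1 held matches to the NF-kappa B letters from 189 to 183, from 167 to 161 and from 84 to 78 bases before the start, and Il1b held a match from 162 to 156. TATAAA lay from 32 to 27 bases before the start in Ccl6 and from 60 to 55 in Il1b. The window of Ccl20, which is not printed, was searched as well and held no match to either. Other forms of the NF-kappa B site were not searched, so a window with no match may still hold one. The NF-kappa B letters were found in 28 of 91 windows of 88 member genes (30.8%) and in 15.0% of all 33469 windows. TATAAA was found in 18 of the 91 (19.8%) and in 12.9% of all. These are matches of letters, not bound sites, and they were chosen with the levels known.

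Cxcl1, a ligand of Cxcr2 that draws neutrophils, was lower than filtered air with every particle size, by amounts that did not pass the test. Its lowest, median and highest levels were 5.99, 6.05 and 6.30 in filtered air, 5.84, 5.94 and 6.09 with coarse, 5.8, 5.96 and 6.11 with fine, and 5.73, 5.95 and 6.14 with ultrafine particles. Of 8 ultrafine arrays, 7 lay below every filtered air array, as did 4 of 6 coarse and 4 of 6 fine arrays, although the groups overlapped. The differences were -0.15 (SE 0.064), -0.14 (SE 0.064) and -0.16 (SE 0.060), with unadjusted p of 0.0295, 0.0433 and 0.0111 and adjusted p of 0.985, 0.827 and 0.780. They were as large without the arrays that stand apart, at -0.14, -0.15 and -0.17. All 3 rest on the same filtered air arrays, and the probe is close to background.

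Neutrophil markers were mostly dim, with 5 of 8 probes near background and S100a8 at 6.51 the brightest. Cxcr1 and Cxcr2, the receptors of the neutrophil chemokines, were near background, as were the related ligands Cxcl2, Cxcl3 and Cxcl6.

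Ccl20, the ligand of Ccr6, and Ccl2, which draws monocytes by way of Ccr2, showed small differences. Ccl20 had lowest, median and highest levels of 5.78, 5.84 and 5.95 in filtered air, 5.85, 5.97 and 6.18 with coarse, 5.77, 5.79 and 6.05 with fine, and 5.64, 5.91 and 6.07 with ultrafine particles. Of 6 coarse arrays, 3 lay above all filtered air arrays. The difference with coarse particles was 0.13 (SE 0.063, unadjusted p = 0.0435, adjusted p = 0.985) in 27 arrays and 0.10 in the 20 arrays.

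Ccl2 had lowest, median and highest levels of 6.32, 6.54 and 6.85 in filtered air, 6.42, 6.59 and 6.77 with coarse, 6.60, 6.70 and 6.94 with fine, and 6.37, 6.61 and 7.60 with ultrafine particles. The groups overlapped throughout, and ultrafine 5 alone gave the value of 7.60. Its differences from filtered air were 0.041, 0.16 and 0.11 with coarse, fine and ultrafine particles, and no adjusted p was below 0.894. Without ultrafine 5 the ultrafine difference was -0.016.

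Il1b, a follower of Cd3d, was higher with ultrafine particles by 0.25 (SE 0.12, unadjusted p = 0.0427, adjusted p = 0.883) in 27 arrays. Its lowest, median and highest levels were 5.81, 5.92 and 6.36 in filtered air, 5.93, 6.07 and 6.71 with coarse, 5.87, 6.00 and 6.08 with fine, and 6.02, 6.14 and 6.70 with ultrafine particles. All 8 ultrafine arrays lay above the filtered air mean, but only 2 lay above its highest array. In the 20 arrays the difference was 0.18 (SE 0.067, adjusted p = 0.394).

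**Figure D4:**
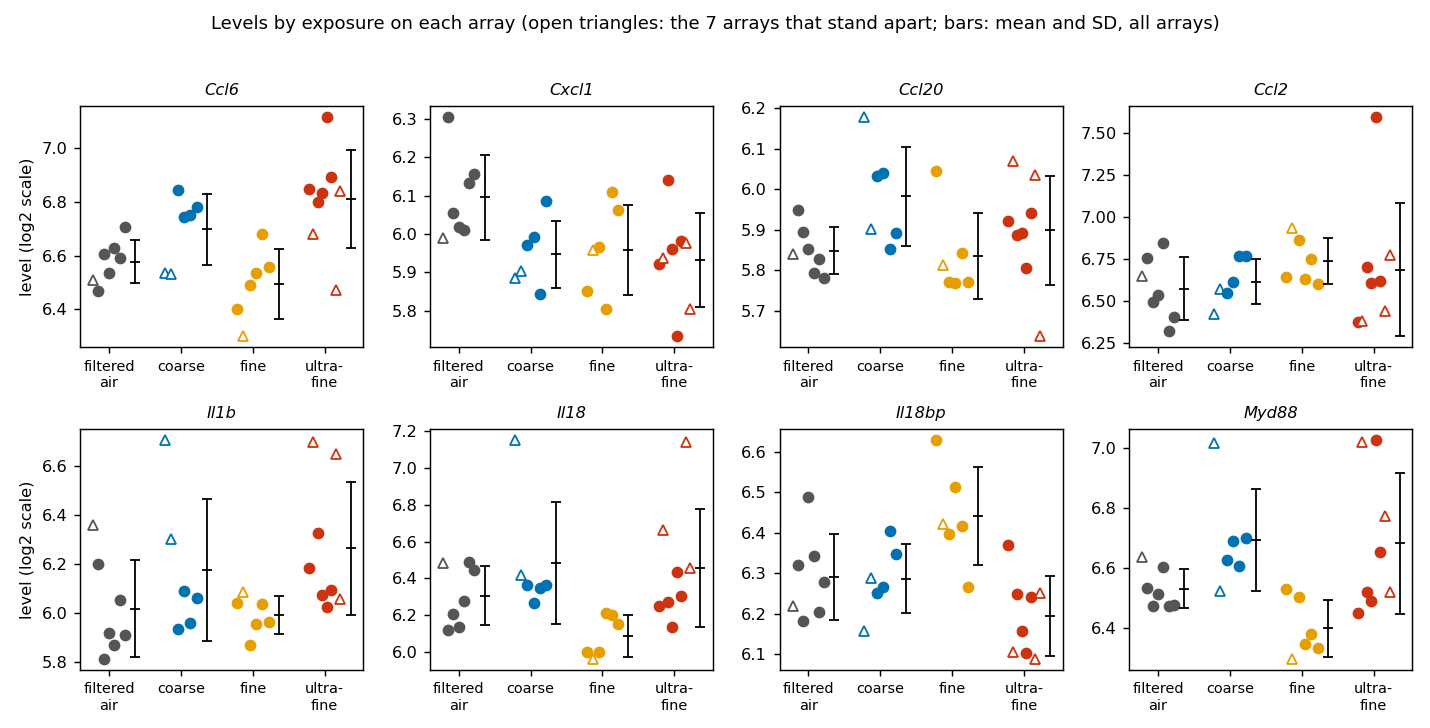
Level of 8 members on the log2 scale on each array by exposure, with the 7 arrays that stand apart as open triangles and the mean and SD of all arrays of a group as a bar. Ccl6 is highest in ultrafine hearts apart from 2 triangles, Cxcl1 is highest in filtered air, and Il18bp is highest in fine hearts.

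Interleukin 18 and its soluble inhibitor lay in opposite directions in fine hearts, by amounts that did not pass the test. Il18bp, which binds interleukin 18 and blocks it, had lowest, median and highest levels of 6.18, 6.28 and 6.49 in filtered air, 6.16, 6.28 and 6.41 with coarse, 6.27, 6.42 and 6.63 with fine, and 6.09, 6.20 and 6.37 with ultrafine particles. Of 6 fine arrays, 5 lay above every ultrafine array. The difference between fine and ultrafine was 0.25 (SE 0.058, adjusted p = 0.0721) in 27 arrays and 0.22 (SE 0.070, adjusted p = 0.143) in the 20 arrays. Against filtered air it was 0.15 with fine (adjusted p = 0.824) and -0.096 with ultrafine particles (adjusted p = 0.883).

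Il18, a cytokine that inflammasomes activate and that raises interferon gamma, had lowest, median and highest levels of 6.12, 6.28 and 6.49 in filtered air, 6.27, 6.36 and 7.15 with coarse, 5.96, 6.08 and 6.21 with fine, and 6.13, 6.37 and 7.14 with ultrafine particles. Every coarse array lay above every fine array. Coarse minus fine was 0.40 (SE 0.14, adjusted p = 0.736) in 27 arrays and 0.22 (SE 0.079, adjusted p = 0.364) in the 20 arrays. Fine minus ultrafine was -0.37 (adjusted p = 0.231) and -0.17 (adjusted p = 0.338). The 27-array values include coarse 1 at 7.15 and ultrafine 7 at 7.14, both high in Cd3d.

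Myd88, the adaptor of most Toll receptors and of the interleukin 1 and 18 receptors, was lowest with fine particles as well, and did not pass the test. Its lowest, median and highest levels were 6.47, 6.51 and 6.64 in filtered air, 6.52, 6.66 and 7.02 with coarse, 6.30, 6.36 and 6.53 with fine, and 6.45, 6.59 and 7.03 with ultrafine particles. Of 6 coarse arrays, 5 lay above every fine array. Coarse minus fine was 0.30 (SE 0.093, unadjusted p = 0.00393, adjusted p = 0.736) and fine minus ultrafine was -0.28 (SE 0.087, adjusted p = 0.16). Without the 7 arrays these were 0.24 (adjusted p = 0.371) and -0.21 (adjusted p = 0.270).

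Il6r, the binding chain of the interleukin 6 receptor, was also lower with fine than with coarse particles without passing the test. It had lowest, median and highest levels of 5.90, 6.09 and 6.24 in filtered air, 6.08, 6.22 and 6.31 with coarse, 5.74, 6.05 and 6.11 with fine, and 5.91, 6.08 and 6.19 with ultrafine particles. Coarse minus fine was 0.23 (unadjusted p = 0.00331, adjusted p = 0.736) in 27 arrays and 0.16 (adjusted p = 0.488) in the 20 arrays. Tlr7, which senses single-stranded RNA, had a coarse minus fine difference of 0.18 (adjusted p = 0.738).

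The other members with the smallest p in a comparison with filtered air differed from it by 0.16 or less. Ccl25, a thymic ligand of Ccr9, was higher with ultrafine particles by 0.16 (unadjusted p = 0.039, adjusted p = 0.883), and 8 of 8 arrays lay above the filtered air mean. Only 3 lay above every filtered air array: ultrafine 7 (6.48), ultrafine 2 (6.19) and ultrafine 8 (6.17), all among the arrays that stand apart. The highest filtered air array, filtered air 1 (6.15), stands apart as well. Il17re, an interleukin 17 receptor chain, differed by -0.13 with ultrafine particles (adjusted p = 0.883), and Ccr4, the receptor of Ccl17 and Ccl22, by -0.12 with fine particles (adjusted p = 0.859). Ccr3, the eotaxin receptor, differed by 0.13 with fine particles (adjusted p = 0.911), and Il6r by 0.13 with coarse particles (adjusted p = 0.985). Il1rapl2 and Ccl12 had the smallest p after Cxcl1 among members lower with coarse particles, at -0.054 and -0.045.

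Tnf lay between 5.53 and 5.87 on all arrays, with medians of 5.72, 5.75, 5.71 and 5.7 in filtered air, coarse, fine and ultrafine hearts. It was not kept by the filter, so only the fits with no filter tested it. Icam1 had lowest, median and highest levels of 6.27, 6.40 and 6.76 in filtered air, 6.25, 6.5 and 7.08 with coarse, 6.16, 6.38 and 6.54 with fine, and 6.16, 6.63 and 7.75 with ultrafine particles. Its difference with ultrafine particles was 0.27 (SE 0.18, adjusted p = 0.883) in 27 arrays and -0.010 in the 20 arrays.

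The genes that act with the members showed no call either. Of 19 probes for Toll and interleukin 1 signalling partners, 11, 9 and 14 lay above filtered air with coarse, fine and ultrafine particles and 0 were called, with 2, 2 and 0 at an unadjusted p under 0.05, beside 4.07%, 5.98% and 5.28% of kept probes. Irf3, an interferon regulatory factor, differed by -0.47 (SE 0.18, adjusted p = 0.824) with fine particles, and Nfkb2, an NF-kappa B precursor, by 0.23 (SE 0.088, adjusted p = 0.824). Tollip, an inhibitor of Toll signalling, and Cd14, a coreceptor of Tlr4, differed by 0.19 and 0.18 with coarse particles (adjusted p = 0.985 for both).

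Of 5 probes for endothelial adhesion molecules, 3, 2 and 2 lay above filtered air and 0 were called, with 0, 2 and 1 at an unadjusted p under 0.05, beside the same shares of kept probes. Icam2 differed by 0.27 (SE 0.088, adjusted p = 0.677) with ultrafine and by 0.22 (adjusted p = 0.824) with fine particles. Of 14 interleukin 6 family and JAK-STAT probes, 10, 9 and 11 lay above filtered air and 0 were called, and Cish, an inhibitor of STAT5 signalling, differed by 0.16 (SE 0.056, adjusted p = 0.75) with ultrafine particles. Of 13 probes for other TNF ligands and receptors, 10, 3 and 10 lay above it and 0 were called, with Tnfrsf1a, the main receptor of tumour necrosis factor, at 0.16 (adjusted p = 0.824) with fine particles.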

How the data were processed

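Levels were measured on Illumina bead arrays hybridised with biotin-labelled RNA. Of 32 arrays, the authors left out 5 for poor hybridisation, per the labels. The deposited log2-like values were made by the authors with lumi 1.5.17, per the submitters' processing notes, at default settings, per the labels. Which log transform was used, plain or variance stabilizing, is not given in the sources used here, and the latter would compress low values. Signal over background and read-out of single beads were not analysed here, and 0 columns of values were left unmatched.

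The 4 groups were fitted in 1 model with limma 3.58.1 (lmFit, eBayes) under R 4.3.3, with two-sided tests and Benjamini-Hochberg adjustment over all 11657 probes kept, those of highest mean (5.79 or more), the number the authors kept by detection. Calls are at an adjusted p under 0.05. The fit was tested on simulated data. All 116 members matched RefSeq (GRCr8), used for names, gene order and promoters, and 22226 probes were searched for symbols.

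The members, the lists, the tests and the 7 arrays set aside were chosen with earlier results of these data known. Named members are Il1b, Cxcl1, Ccl20, Ccl2, Tnf, Myd88, Icam1, those called, the 3 of smallest p in each direction against filtered air, the 10 of highest mean, followers of Cd3d and the 2 nearest each side of 5.8. Il18, Il6r and Tlr7 between sizes and members given as near background were named after their values were seen. Alternatives were other filters, normalizations and variance models, array weights, replicate numbers as a block, compared groups alone, 1 probe per gene, the 7 or 6 arrays left out, Cd3d as a covariate and each array left out.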

Additional observations from a re-analysis of the deposited data

Results flagged for a closer look

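Single arrays that lay far from the rest of their group were looked for by Dixon's test over 27 members in 4 groups each, 108 groups in all, of which chance marks about 1 in 20. It marked 12, and 10 of them were on the arrays that stand apart. On coarse 1 these were Cxcl12 at 9.54 (next 8.41), Cxcl9 at 9.93 (next 9.19), Il18 at 7.15 (next 6.42), Myd88 at 7.02 (next 6.7) and Ccl25 at 6.28 (next 6.05). On filtered air 1 they were Ccl19 at 9.38 (next 7.51) and Ccl21 at 8.22 (next 7.51). On fine 2 Ccl19 was high at 8.22 (next 7.5) and Cxcl11 low at 8.99 (next 9.33), and on ultrafine 7 Ccl25 was high at 6.48 (next 6.19). The remaining flags were Ccl2 at 7.60 on ultrafine 5 (next 6.78) and Ccl20 at 6.05 on fine 1 (next 5.84). Cxcl12, Ccl19 and Ccl21 are followers of Cd3d, chosen for being high on the arrays high in Cd3d. Their flags on those arrays were partly fixed by that choice and are no separate evidence.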

How the results depend on the processing

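The counts of members called, 0 in the 27 arrays, stayed 0 for coarse against filtered air, fine against filtered air and coarse against ultrafine under every alternative run. For ultrafine against filtered air 1 member, Ccl6, was called with array weights, without the 7 arrays, without the 6 arrays high in Cd3d, with Cd3d as a covariate and without the 7 arrays and with no filter, an alternative chosen after seeing the data. For coarse against fine array weights called 2, Ccl6 and Myd88. For fine against ultrafine 2 were called with cyclic loess and with Cd3d as a covariate, both times Ccl6 and Il18bp, and 1 with array weights, without the 7 arrays (with or without the filter) and without the 6 arrays. Leaving out single arrays gave 0 to 2 there, with 1 (Il18bp) without coarse 1 or fine 6, 2 (Ccl6 and Il18bp) without ultrafine 5 and 1 (Ccl6) without ultrafine 7. For any difference among the 4 groups 2 were called with array weights, 1 without the 7 arrays (with or without the filter), without the 6 arrays and with Cd3d as a covariate, and 0 to 1 with single arrays left out, the 1 being without ultrafine 7. The cause of these moves was not tested. With the replicate number as a block 1 member, Ccl6, was called for fine against ultrafine and 0 in the other comparisons. The numbers were not taken to pair the arrays, because the labels do not tie a number to a shared batch and not every same-numbered pair had a correlation above 0.1. There were 23 of 37 such pairs above it (median 0.341), beside 98 of 235 pairs of different numbers (median 0.0083), which is a hint of pairing from the data, while 6 of 27 arrays correlated best with their own number. Requiring all 6 highest arrays to be shared left 6 followers of Cd3d in place of 21. Of the log2 differences of members that were recomputed, 5 changed direction under some alternative, none of them called in the 27 arrays. With coarse particles Icam1 went from 0.13 to -0.0053 without the 7 arrays (with or without the filter) or the 6 arrays and to -0.0224 with Cd3d as a covariate. With ultrafine particles Icam1 went to -0.0711 with array weights and -0.0103 without the 7 arrays (with or without the filter). With single arrays left out, the ultrafine differences ran from -0.0143 to 0.268 for Ccl5 and from -0.0162 to 0.16 for Ccl2, both lowest without ultrafine 5, and the coarse difference of Ccl2 from -0.001 to 0.0866, lowest without filtered air 6. Signal limits what can be seen of the 56 probes near background, and the number of arrays limits the rest.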
